A study of Mus musculus with 2 samples.

Results

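The 40 genes described here are markers of the cells that build brain blood vessels. They were taken from the deposited expression table by symbol, and all 40 were found among its 24229 rows. Of these, 31 are genes of endothelial cells, 6 of pericytes and 3 of vascular smooth muscle. The tissue was the suprachiasmatic nucleus (SCN), the hypothalamic pacemaker, of wild type C57BL/6 mice at postnatal day 68. The first group, ST, had been entrained for 4 weeks to a short T-cycle, meaning a fixed alternation of light and dark, and the other, NT, to a normal one. Each group held 8 of the 16 mice, which all started with 7 days of constant darkness. After 5 days in darkness, brains of both groups were removed at circadian time 4 h, and the SCN was cut from 250 µm slices. Each group gave 1 RNA sequencing library, and the number of mice behind it is not given in the sources used here.

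Endothelial cells line the vessel and, in brain, form the blood-brain barrier through tight junctions, low vesicle traffic and selective carriers. Pericytes sit on capillaries in the same basement membrane and are held there by PDGF-B from the endothelium, while smooth muscle cells ring arteries and arterioles and set their width. Fine dissection of the SCN takes these vessels along with the neurons and glia.

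With 1 library per group there was no estimate of biological spread and no test, so each difference below is between these libraries. Counts were scaled by size factors, and a ratio is the normalised count in ST over that in NT. Each interval is the exact 95% counting interval of that ratio, which covers counting error only. It may be too narrow even for that, because PCR copies of 1 molecule may have been counted more than once. The ST library held 19476689 counts and the NT library 24790629. The count filter asked for an average of at least 50 normalised counts over the pair of libraries. It left 14343 genes, called the genes kept, and their median log2 ratio was -0.00. SCN identity was present, with Avp, vasopressin, at 656 RPKM in ST and 563 in NT, and Vip, vasoactive intestinal peptide, at 168 and 197 RPKM.

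The member genes were lower in ST almost throughout, by a modest amount. Wider lists of vessel genes, given below, were mixed. Oligodendrocyte and microglia markers had like median log2 ratios, at -0.30 and -0.27, while neuron markers were at -0.05. Of the 39 members that passed the count filter, 37 had a ratio below 1, against 50.9% of all genes kept, and 2 a ratio above 1, against 49.1%. The whole interval lay below 1 for 28 of them, against 10.2% of all genes kept, and above 1 for 0, against 7.79%. A difference of at least 1.2-fold toward lower values was reached by 27 members, against 6.11% of all genes kept. None was 1.5-fold lower, which 0.865% of all genes kept were, or 2-fold lower, which 0.23% were. The median log2 ratio of the 39 was -0.32, with quartiles of -0.40 and -0.24. Under total-count scaling 36 had a ratio below 1, since Abcg2, at -0.00, turned to 0.01. The remaining member, the transcription factor Sox7, had 28 counts in ST and 48 in NT. In a bulk sample, fewer vessel cells and less RNA per vessel cell cannot be told apart.

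**Figure D1:**
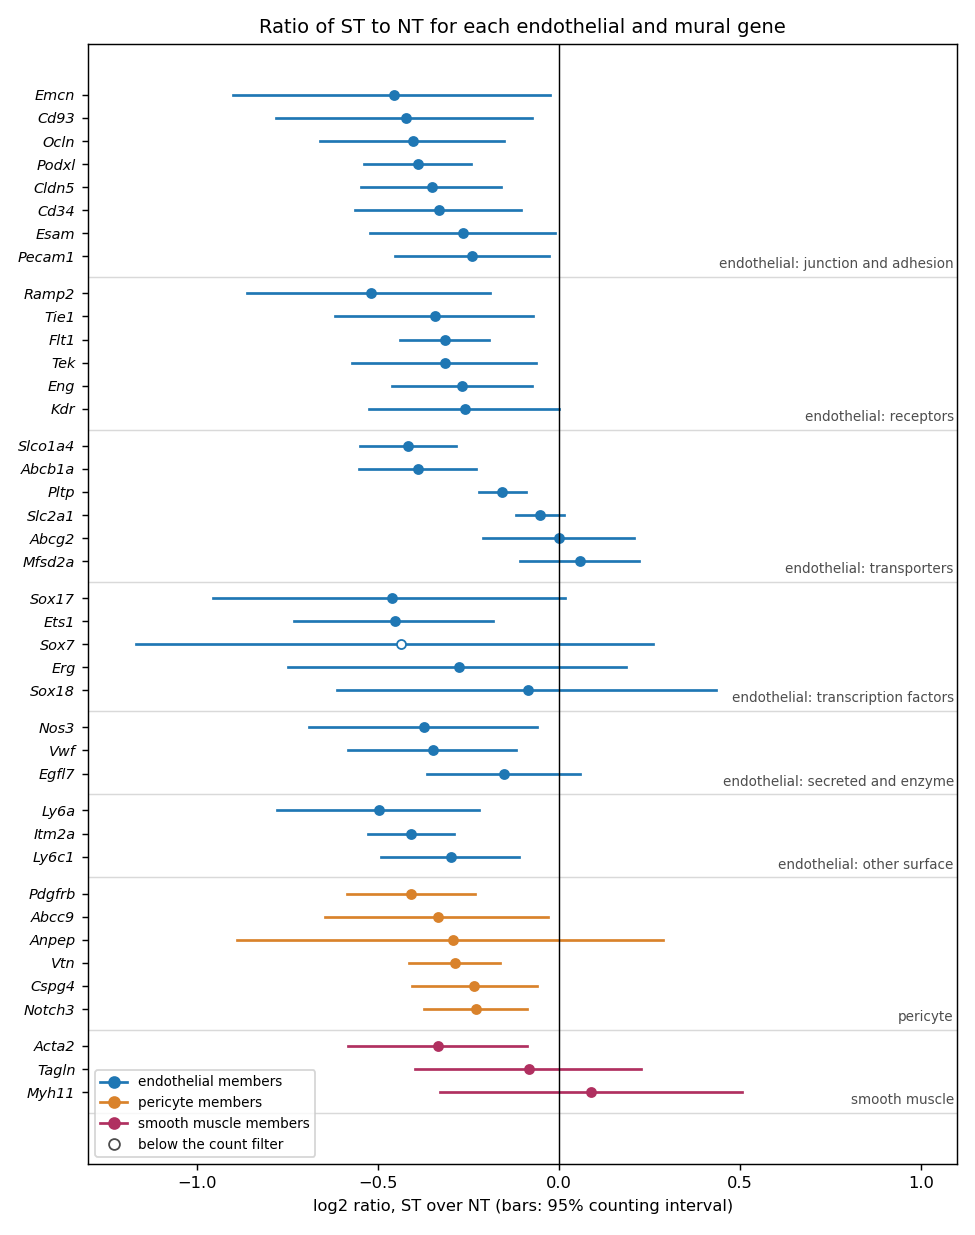
Log2 ratio of ST to NT (horizontal axis) for each of the 40 members, grouped by cell and role, with bars for the 95% counting interval. Apart from Mfsd2a and Myh11, every point lies left of 0, and the lowest, Ramp2, is at -0.52.

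Endothelial and pericyte genes had similar ratios, and the 3 smooth muscle genes lay on both sides of 1 with overlapping intervals. The 30 endothelial members kept had a median log2 ratio of -0.34 with a range from -0.52 to 0.06. The 6 pericyte members had a median of -0.29 and a narrow range from -0.41 to -0.23. The smooth muscle median was -0.08, with 1 interval below 1 and 2 that held 1. The endothelial median was thus 0.05 below the pericyte median and 0.25 below the smooth muscle median on the log2 scale (differences of -0.05 and -0.25), and with 3 smooth muscle genes that last value rests on single genes. With a filter of 200, Acta2 was the 1 smooth muscle gene left, at -0.33, and the gap to the endothelial median, then -0.32, was gone.

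Summed counts weight each gene by its abundance and put the pericyte ratio a little below the endothelial one, with intervals that overlap. Endothelial members summed to 15319 counts in ST and 22685 in NT, a ratio of 0.852 (interval 0.835 to 0.870). Pericyte members summed to 2601 counts in ST and 4005 in NT, a ratio of 0.820 (0.780 to 0.861). Smooth muscle members summed to 464 and 663 counts, a ratio of 0.883 (0.783 to 0.996), whose wide interval covers both other ratios. The endothelial sum depends on Slc2a1 and Pltp, which made up 42.6% of it in ST and 39.0% in NT. Without that pair, a choice made after the values were seen, the ratio was 0.803 (0.781 to 0.824), or 19.7% lower in ST. That is below the pericyte ratio, so the order of these cell groups depends on the pair, and the intervals overlap either way.

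**Figure D2:**
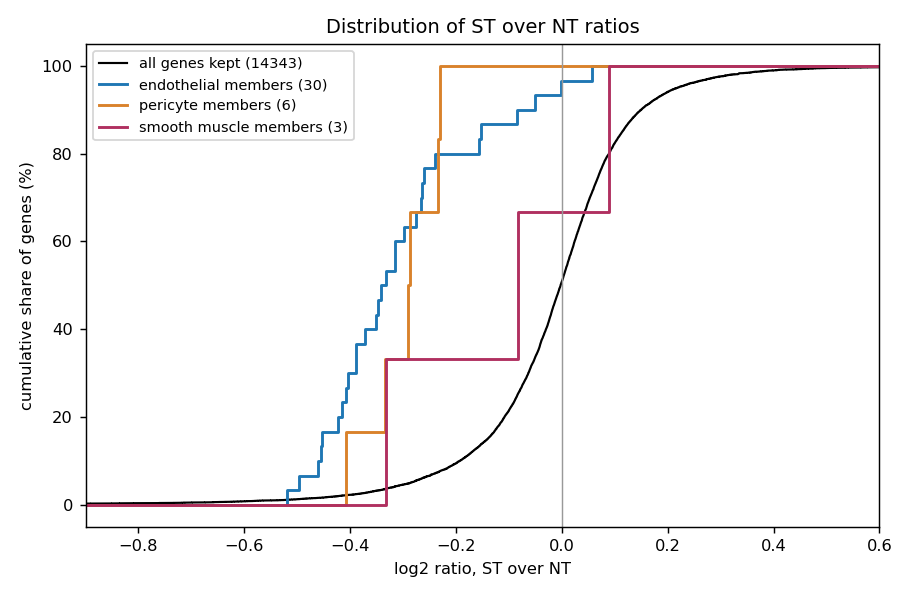
Cumulative share of genes (vertical axis, percent) against the log2 ratio of ST to NT (horizontal axis) for the 3 cell groups and for all 14343 genes kept. The endothelial and pericyte steps lie left of the line for all genes, with medians of -0.34 and -0.29 against -0.00, and the 3 smooth muscle steps spread from -0.33 to 0.09.

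Levels were compared between genes per length, as RPKM from the authors' deposited values. Pltp, a phospholipid transfer protein, was highest at 65.1 RPKM in ST and 72.0 in NT. Slc2a1, the glucose transporter GLUT1, followed at 59.5 RPKM in ST and 61.1 in NT. Both are also made by other brain cells, so their level is not that of endothelium alone. Itm2a, a membrane protein, had 26.9 RPKM in ST and 35.4 in NT. Ly6c1, a surface antigen, had 23.7 and 28.9 RPKM. Vtn, vitronectin, which in brain comes mainly from pericytes, had 21.8 and 26.4 RPKM. These 5 held the same places in both libraries, and Cldn5 came next in both.

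Other defining genes were present at lower levels, and 0 members had a count of 0 in either library. The median level was 3.72 RPKM in ST and 4.39 in NT over the endothelial members kept. For pericyte members it was 3.62 RPKM in ST and 4.41 in NT, and for smooth muscle members 5.44 and 5.74. At the bottom stood Sox7, at 0.436 RPKM in ST and 0.587 in NT. Across the 30 endothelial members kept, which share the same 2 libraries and depths, the log2 ratio and the log2 level had a Pearson r of 0.31 and a Spearman rho of 0.24. Without Slc2a1 and Pltp these were 0.12 and 0.11.

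**Figure D3:**
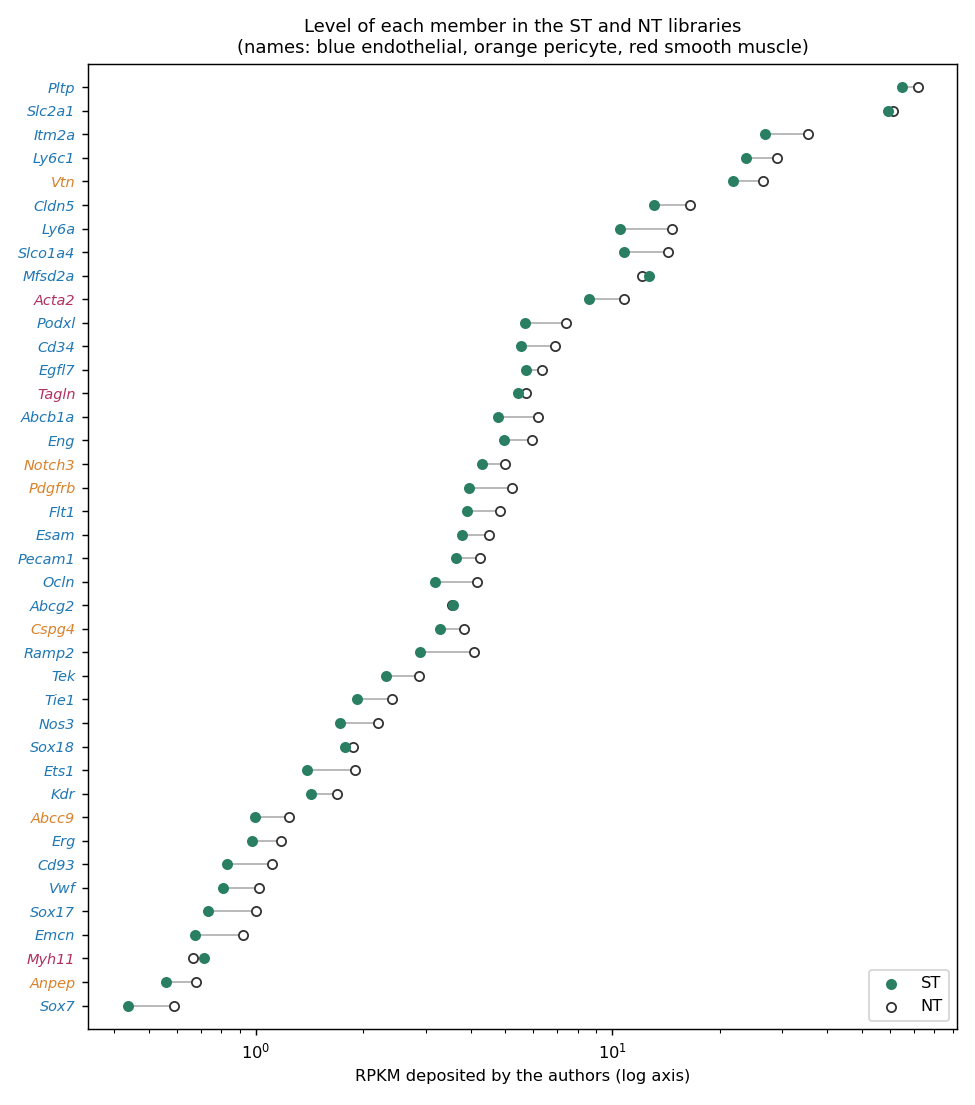
Deposited RPKM (horizontal log axis) of each member in ST (filled) and NT (open), ordered by mean level. The ST point lies left of the NT point except for Mfsd2a, Abcg2 and Myh11, and levels span from 0.436 RPKM for Sox7 to 72.0 RPKM for Pltp.

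Genes of endothelial junctions and adhesion were lower in ST without exception. All 8 had intervals below 1, and their log2 ratios ran from -0.45 to -0.24 around a median of -0.37. Cldn5 (ENSMUSG00000041378, mm9 chromosome 16, 18776940 to 18778353, plus strand), the main claudin of brain tight junctions, had 359 counts in ST, against 578 in NT. That is 13.0 RPKM in ST against 16.5 in NT, a ratio of 0.784 (0.685 to 0.896). Ocln, occludin, the other classical tight junction membrane protein, had 206 and 344 counts, a ratio of 0.756 (0.633 to 0.901). Esam, an adhesion molecule of endothelial contacts, had 211 and 320 counts, and Pecam1, the CD31 antigen, had 306 and 456. Their upper bounds were close to 1, at 0.993 and 0.981.

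The sialomucins and related surface proteins of this set were lower as well. Podxl, podocalyxin, had 608 counts in ST and 1005 in NT, a ratio of 0.764 (0.689 to 0.845). Cd34 had 258 and 410 counts, a ratio of 0.794 (0.677 to 0.930), although it shares reads, meaning that a deposited count is not whole. Podxl and Cd34 are also made by other brain cells, so their counts are not those of endothelium alone. Emcn, endomucin, had 71 and 123 counts (ratio 0.729, 0.536 to 0.984), and Cd93 had 108 and 183 (0.745, 0.582 to 0.950). The ratios of all 8 junction and adhesion genes lay between 0.729 and 0.847, with overlapping intervals.

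The endothelial receptors gave 5 intervals below 1 out of 6, with a median log2 ratio of -0.32. Flt1 and Kdr encode VEGF receptors 1 and 2, the first a decoy for the ligand and the second the main signalling receptor. Flt1 had 882 counts in ST and 1385 in NT, a ratio of 0.804 (0.738 to 0.875). Kdr had 201 and 304 counts, and its interval just reached 1 (ratio 0.834, 0.695 to 1.001). Tek, the angiopoietin receptor TIE2, and its partner Tie1 were alike, with 212 and 183 counts in ST against 333 and 293 in NT. Their ratios were 0.804 (0.673 to 0.957) for Tek and 0.788 (0.652 to 0.951) for Tie1.

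Eng, endoglin, a co-receptor for TGF-beta and BMP ligands, had 372 counts in ST and 565 in NT (ratio 0.831, 0.727 to 0.949). Ramp2, the accessory protein that makes the calcitonin receptor-like receptor respond to adrenomedullin, had the lowest ratio of all 40 members. It had 117 counts in ST and 212 in NT, or 2.88 RPKM against 4.09, a ratio of 0.697 (0.551 to 0.877). Its row overlaps that of Vps25 in the deposited table, and both Ramp2 and Eng share reads.

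Among the endothelial sets, the carriers had the widest range of log2 ratios, from -0.42 to 0.06. Slco1a4, an organic anion transporter of the barrier, had 751 counts in ST and 1265 in NT, a ratio of 0.749 (0.684 to 0.821). Abcb1a, the drug efflux pump P-glycoprotein, had 507 and 838 counts, a ratio of 0.764 (0.683 to 0.854). Both were thus about as low as the junction genes, and each shares reads, although no row of another feature overlaps theirs. By contrast, Mfsd2a (ENSMUSG00000028655, mm9 chromosome 4, 122624093 to 122638431, minus strand), the lysophospholipid carrier that limits vesicle traffic across the barrier, had 553 counts in ST and 671 in NT. Its level was 12.7 RPKM in ST and 12.1 in NT, a ratio of 1.04 (0.928 to 1.17).

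Abcg2, another efflux pump, had 346 counts in ST and 437 in NT, a ratio of 0.999 (0.865 to 1.15). Slc2a1 had 3291 and 4305 counts, a ratio of 0.965 (0.922 to 1.01), and Pltp had 3231 and 4545, a ratio of 0.897 (0.857 to 0.939). Of these 4, the interval of Pltp alone lay below 1. The intervals of Mfsd2a, Abcg2 and Slc2a1 do not overlap those of Slco1a4 and Abcb1a. Mfsd2a shares no reads, so its value is not affected by reads divided between features. Abcg2, Slc2a1 and Pltp do share reads. Rows of other features overlap those of Slc2a1 and Pltp, among them Ctsa, a lysosomal protease gene on the other strand from Pltp.

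To see which members stood off the rest, each interval was set against the ratio of summed counts of the other endothelial members. That ratio was held by 22 of 30 intervals. Those of Slc2a1, Mfsd2a, Abcg2 and Pltp lay above it, and those of Podxl, Slco1a4, Abcb1a and Itm2a below. Slc2a1 and Pltp were then left out of the sum, a choice made after the values were seen. This lowers the ratio of the endothelial sum from 0.852 to 0.803. With them left out, 26 intervals held the ratio, the same genes lay above it and 0 lay below. This is a description of these libraries with no test, and it leaves out the counting error of the summed ratio itself.

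The letters upstream of 3 endothelial genes are shown as examples of genes lower in ST, Slco1a4 and Cldn5, and of one whose interval held 1, Mfsd2a. ETS factors such as ERG and ETS1 bind a core of GGAA and are master regulators of endothelial genes. The windows are the 250 bases before the RefSeq start, on GRCm38.p6, chr6:141856221-141856470 (minus strand), chr16:18776597-18776846 (plus strand) and chr4:122961189-122961438 (minus strand). Capitals mark GGAA read on either strand, where TTCC is the same core on the other strand.
Slco1a4: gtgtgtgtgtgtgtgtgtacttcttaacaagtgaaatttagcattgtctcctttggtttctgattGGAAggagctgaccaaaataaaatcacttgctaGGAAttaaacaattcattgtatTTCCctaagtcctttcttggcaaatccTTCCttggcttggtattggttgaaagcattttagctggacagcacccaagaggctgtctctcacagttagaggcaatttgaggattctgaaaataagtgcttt
Cldn5: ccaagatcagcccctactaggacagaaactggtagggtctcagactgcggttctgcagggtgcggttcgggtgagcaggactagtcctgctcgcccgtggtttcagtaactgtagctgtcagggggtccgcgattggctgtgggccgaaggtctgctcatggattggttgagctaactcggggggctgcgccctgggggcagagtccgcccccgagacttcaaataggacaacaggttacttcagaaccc
Mfsd2a: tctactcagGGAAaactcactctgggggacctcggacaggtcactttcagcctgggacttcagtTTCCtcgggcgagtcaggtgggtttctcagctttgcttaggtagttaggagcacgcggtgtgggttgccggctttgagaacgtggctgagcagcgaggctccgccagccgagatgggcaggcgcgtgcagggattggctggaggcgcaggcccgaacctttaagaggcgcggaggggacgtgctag
The core was found 4 times before Slco1a4, 2 times before Mfsd2a and 0 times before Cldn5. Of all 32851 RefSeq windows of this length, 93.4% hold it, and so did 29 of the 33 windows of the 25 members with an entry. So short a core is nearly everywhere, so counts of it before 3 chosen genes say nothing about their ratios.

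Endothelial transcription factors were at low counts, which left wide intervals. Ets1, an ETS factor also present in lymphocytes, had 174 counts in ST and 301 in NT, a ratio of 0.730 (0.602 to 0.882). Erg, the ETS factor that maintains endothelial identity, had 66 and 101 counts (0.825, 0.595 to 1.14). The SOX F family was covered by Sox17 with 58 and 101 counts (0.725, 0.515 to 1.01), Sox18 with 56 and 75 (0.942, 0.654 to 1.35) and Sox7 with 28 and 48 (0.736, 0.445 to 1.197). Of the 5, the interval of Ets1 alone lay below 1, and differences within the SOX family were not detectable at this depth. Summed over the 5 genes, 382 counts in ST stood against 626 in NT, a ratio of 0.770 (0.676 to 0.876).

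Secreted and enzyme genes of endothelium leaned the same way. Vwf, von Willebrand factor, had 252 counts in ST and 405 in NT, a ratio of 0.785 (0.668 to 0.921). Nos3, endothelial nitric oxide synthase, had 137 and 224 counts, a ratio of 0.772 (0.619 to 0.959), but it shares reads and its row overlaps Atg9b. Egfl7, a matrix protein that guides vessel tubes and hosts the endothelial microRNA miR-126, had 320 and 449 counts. Its interval held 1 (ratio 0.900, 0.777 to 1.04), it shares reads, and its row overlaps Agpat2.

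The 3 remaining surface genes were all lower in ST. Itm2a (X chromosome) had 910 counts in ST and 1524 in NT, a ratio of 0.754 (0.693 to 0.819), with no shared reads. Ly6a, known as Sca-1, had 169 and 301 counts (0.709, 0.583 to 0.858), and Ly6c1 had 376 and 584 (0.813, 0.712 to 0.927). In mm9 the deposited span of Ly6a on chromosome 15, from 74825308 to 74879243, contains that of its paralog Ly6c1, from 74875451 to 74879243. Both share reads, so the split between them is uncertain.

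All 6 pericyte genes were lower in ST, 5 of them with an interval below 1. Pdgfrb (ENSMUSG00000024620, mm9 chromosome 18, 61204804 to 61244715, plus strand), the receptor through which endothelial PDGF-B recruits pericytes, had 421 counts in ST and 705 in NT. That is 3.96 RPKM in ST against 5.21 in NT, a ratio of 0.754 (0.666 to 0.852). Vtn had 860 and 1325 counts, a ratio of 0.819 (0.751 to 0.893). Notch3, the Notch receptor of mural cells, had 670 and 992 counts, a ratio of 0.852 (0.772 to 0.941).

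Cspg4, the NG2 proteoglycan of pericytes and of oligodendrocyte precursors, had 463 counts in ST and 687 in NT, a ratio of 0.851 (0.754 to 0.958). Abcc9, the sulfonylurea receptor subunit of the vascular ATP-sensitive potassium channel, had 145 and 231 counts (0.792, 0.639 to 0.979) and shares reads. Anpep, aminopeptidase N, had 42 and 65 counts, too few to set it apart from 1 (0.816, 0.540 to 1.22). All 6 intervals held the ratio of summed counts of the other 5 genes, so the pericyte genes could not be separated from each other at this depth.

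Among the smooth muscle contractile genes, the interval of Acta2 alone lay below 1. Acta2, smooth muscle alpha-actin, had 222 counts in ST and 353 in NT, or 8.62 RPKM against 10.8, a ratio of 0.794 (0.668 to 0.942). Tagln, the actin-binding protein SM22-alpha, had 151 and 202 counts, a ratio of 0.943 (0.759 to 1.17). It shares reads, and its row overlaps Pcsk7. Myh11 (ENSMUSG00000018830, mm9 chromosome 16, 14194625 to 14291465, minus strand), the smooth muscle myosin heavy chain, had 91 counts in ST, against 108 in NT. Its level was 0.713 RPKM in ST and 0.665 in NT, a ratio of 1.06 (0.796 to 1.42). The intervals of the 3 genes overlap. That of Acta2 lay below the ratio of summed counts of the other 2, which was 0.985. This ratio has counting error of its own that was left out, so Acta2 is not set apart from them.

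The Acta2 promoter is shown because smooth muscle genes are classically driven by serum response factor at CArG boxes, and those of this gene are known to carry a base that breaks the A/T-rich core. The window is the 250 bases before the RefSeq start at chr19:34255374-34255623 of GRCm38.p6, minus strand. Capitals mark boxes with at most 1 such base, which read as a box on both strands.
Acta2: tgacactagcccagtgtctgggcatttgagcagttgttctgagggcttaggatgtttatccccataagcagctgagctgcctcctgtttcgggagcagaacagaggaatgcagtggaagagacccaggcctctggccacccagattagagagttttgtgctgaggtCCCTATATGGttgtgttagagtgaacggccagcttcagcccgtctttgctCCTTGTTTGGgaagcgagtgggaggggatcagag
The strict CArG box had 0 matches here, and 1.47% of all RefSeq windows hold one. The form with at most 1 broken position, searched after the strict one had no match, was found 2 times, and 8.59% of all windows hold it. Of the 33 windows of members with an entry, 6 held that form. Apart from Acta2, these lay before the endothelial genes Egfl7, Eng, Kdr, Ocln and Slco1a4. A promoter entry was at hand for 1 of the 3 smooth muscle genes.

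Other genes of vessel cells, from lists that repeat no member but Sox17, gave a mixed picture. Over all genes kept, 50.9% had a ratio below 1, 10.2% an interval below 1 and 7.79% an interval above 1. These shares apply to every list below, and in lists this short a small count of intervals is not set apart from them. Of 17 further endothelial genes kept, 16 had a ratio below 1, 9 had an interval below 1 and 0 above, and their median log2 ratio was -0.33, or -0.19 with a filter of 200. The most abundant were Bsg, basigin, which most cells make, at 0.02 (interval 0.986 to 1.05 for the ratio), and S1pr1, a sphingosine phosphate receptor shared with astrocytes, at -0.27. The largest differences were in Fli1, an ETS factor also found in microglia, at -0.62 (0.426 to 0.971), and Eltd1, an adhesion G protein-coupled receptor, at -0.60 (0.549 to 0.793). Of 12 further pericyte genes kept, 9 had a ratio below 1, with 5 intervals below 1, 1 above and a median of -0.21, or -0.10 with a filter of 200.

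Within the pericyte list the abundant Rgs5, a G protein regulator and strong pericyte marker, was at -0.32 with 1359 counts in ST and 2138 in NT. Zic1, a transcription factor that SCN neurons also make, was at 0.19. Art3 was at -0.96, but its row overlaps Cxcl10 and Cxcl11 and it shares reads, and Cd248, endosialin, was at -0.49 with 55 counts in ST and 98 in NT. Of 9 further smooth muscle genes kept, 6 had a ratio below 1, 1 had an interval below 1 and 1 above, with a median of -0.12. Myl9, a myosin light chain, was at -0.30, Tpm1, a tropomyosin of many cells, at 0.05, and Tpm2 at -0.40 with an interval that held 1 (0.504 to 1.126).

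Lists of signalling partners had medians nearer to 0 than the receptors, which were at -0.32. In the VEGF list 2 of 11 genes kept had an interval below 1 and 0 above, with a median of -0.13. The hypoxia factor Epas1 was at -0.13, and the ligands Vegfb, Pgf and Vegfc were at 0.03, -0.21 and -0.22, each with an interval that held 1. In the angiopoietin and TGF-beta list 3 of 12 intervals lay below 1, with a median of -0.12. Ptprb, the endothelial phosphatase that restrains TIE2, was at -0.53 (0.594 to 0.807), and Tgfb1 at -0.42 (0.512 to 1.08). The widely expressed Smad5 and Bmpr2 were at 0.01 and -0.12.

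In the PDGF and Notch list 3 of 15 intervals lay below 1, with a median of -0.04. The Notch target Hey1 was at -0.26 and the ligand Pdgfd at -0.37 (0.629 to 0.942). The Notch ligands Jag2 and Jag1 were at 0.07 (0.979 to 1.129) and -0.34 (0.623 to 0.999). In the WNT and norrin list, the pathway that induces the barrier, 5 of 15 intervals lay below 1, with a median of -0.17. Lef1, its nuclear effector, was at -0.70 with 34 counts in ST and 70 in NT. Ctnnb1, beta-catenin, was at -0.02 and Tspan12, a norrin co-receptor, at -0.13. In these 4 pathway lists, 0 genes had an interval above 1, against 7.79% of all genes kept.

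Partners at the junction were mostly close to equal, with 2 of 10 intervals below 1 and 0 above, and a median of -0.07. Cdh5, VE-cadherin, the endothelial cadherin, was at -0.42 with 181 counts in ST, against 306 in NT, and the junction adhesion molecule F11r at -0.28, with an interval that held 1 (0.666 to 1.02). Broadly expressed partners were near 0, with Ctnna1, alpha-catenin, at -0.04 and Jam3 at 0.07. Of 15 further barrier carriers kept, 9 had an interval below 1 and 0 above, with a median of -0.13. The iron exporter Slc40a1 was at -0.66 (0.514 to 0.772) and the organic anion transporter Slc22a8 at -0.59 (0.550 to 0.794). Slc3a2 and Slc7a5, the 2 chains of a large amino acid carrier, were at -0.13 and -0.11.

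Arterial and venous genes went both ways, while most basement membrane genes had a ratio below 1. Of 7 arterial and venous genes kept, 2 had an interval below 1 and 2 above. Their median was 0.15, but -0.078 when genes down to a mean normalised count of 10 were let in. Ephb4, the venous ephrin receptor, was at -0.60 (0.525 to 0.819) and Vcam1, a leukocyte adhesion molecule, at -0.35. Nr2f2, a venous factor that neurons also make, was at 0.23, and Darc, a chemokine receptor of venules, at -0.08. Of 11 basement membrane genes, 10 had a ratio below 1, and the median was -0.10. Their intervals lay below 1 for 5 genes and above 1 for 1. Lama4, the laminin chain of endothelial basement membrane, was at -0.86 with 71 counts in ST and 163 in NT. The linker Nid1 was at -0.61. Sparc and Sparcl1, which glia and neurons make in bulk, were at -0.05 and -0.10.

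**Figure D4:**
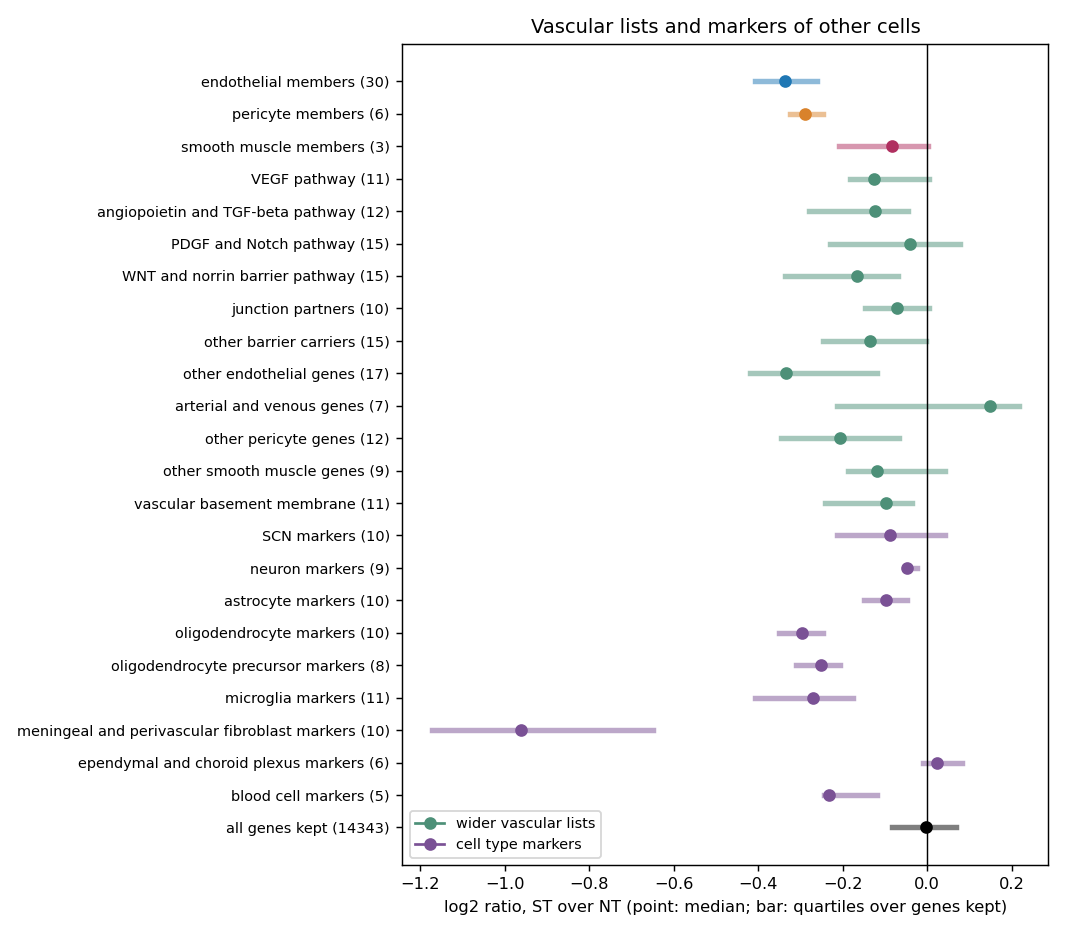
Median log2 ratio of ST to NT (points) with quartiles over genes kept (bars, horizontal axis) for the members, the wider vascular lists, markers of other cells and all genes kept, with the number of genes in brackets. Endothelial and pericyte members lie at -0.34 and -0.29, close to oligodendrocyte markers at -0.30 and microglia markers at -0.27, while meningeal and perivascular fibroblast markers lie at -0.96 and neuron markers at -0.05.

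Markers of several other cells were lower along with the vessel genes, and their part in the result was not tested. All 10 oligodendrocyte markers had an interval below 1, around a median of -0.30, and their summed levels were 965 RPKM in ST and 1179 in NT. The abundant myelin gene Mbp was at -0.33. All 11 microglia markers had a ratio below 1, and 8 of their intervals lay below it. Their median was -0.27, with 157 RPKM in ST against 182 in NT, and the complement gene C1qa was at -0.27. Oligodendrocyte precursor markers, which bear on Cspg4, were lower in 8 of 8 cases, with a median of -0.25 and 131 RPKM against 155, and with Olig1 and Sox10 at -0.24 and -0.31. Meningeal and perivascular fibroblast markers differed most, with 9 of 10 intervals below 1, a median of -0.96 and 30.2 RPKM in ST against 48.0 in NT. Their most abundant genes were Pdgfra, which oligodendrocyte precursors also make, at -0.18 and the growth factor gene Igf2 at -0.98.

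Markers of neurons and astrocytes differed less. Of 9 neuron markers, 3 had an interval below 1 and 1 above. Their median was -0.05, with 959 RPKM in ST against 964 in NT, and Stmn2 and Gad2 at 0.06 and -0.05. Of 10 astrocyte markers, 8 had an interval below 1 and 1 above. Their median was -0.10, with 1074 RPKM against 1124, and Aldoc and Gfap at 0.04 and -0.20. Ependymal and choroid plexus markers had a median of 0.02, with 1 of 6 intervals below 1 and 207 RPKM against 208, and with Rarres2 and Ccdc153 at -0.12 and -0.02. Blood cell markers had 3 of 5 intervals below 1, a median of -0.23 and 141 RPKM against 157, with the globin genes Hba-a2 and Hbb-b2 at -0.12 and -0.08. In that list the T cell gene Cd3e had 1 and 0 counts and the neutrophil gene S100a9 0 and 2, and no marker of the other cell types was at 0. Among the wider vascular lists, Actg2 of the smooth muscle list had 0 counts in ST and 1 in NT.

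The authors' deposited table calls 0 of the 40 members at an adjusted p of 0.05, against 0.202% of all its rows. The lowest adjusted p among members in the authors' deposited table was 0.807, for Itm2a, and 38 members had an adjusted p of 1. Before adjustment, 12 members had a p under 0.05 in the authors' deposited table. The share of all rows under that p was not counted, so whether 12 is many cannot be said here. The authors' comparison also rests on 1 library per group.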

How the data were processed

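Polyadenylated RNA of 1 ST and 1 NT library was sequenced from 500 ng of RNA. Build mm9 and the tools CASAVA 1.8.2, TopHat 1.2 and DESeq are listed, per the submitters' processing notes, without a role or order, and the counter is not given in the sources used here. Per the file headers, the authors deposited estimated counts, RPKM (per gene length and library total) and RPM, and for ST over NT a fold, its log2, a p-value and an adjusted p-value. Another 3 columns of means were not used. Estimated counts were rounded. A gene is said to share reads where a deposited count is not whole (tolerance 1e-06), as for 14 of the 40 members. Size factors (median of ratios) were 0.890 for ST and 1.12 for NT, the pseudocount for log2 ratios was 0.5, and intervals are Clopper-Pearson intervals of the share of a gene's counts found in ST, turned into a ratio with the size factors (scipy 1.17.1). TMM factors came from edgeR 4.0.16. The calculation was tested on simulated data. All 40 identifiers were found in GENCODE vM1 of NCBIM37 (mm9) and overlapped the annotated gene there. Promoter letters are from RefSeq, GRCm38.p6, matched by symbol for 25 of 40 members. The members and lists were chosen with earlier results of these data known. The text names all members, and from each wider vascular list the 2 most abundant genes and the 2 with the largest log2 ratio in size, and from each marker list the 2 most abundant. Some marker genes due under that rule are not reported here and count only within their lists. Cd3e and S100a9 were named after their values were seen. A library with no replicate gives no biological error.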

Additional observations from a re-analysis of the deposited data

How the results depend on the processing

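No paired analysis was possible because there was 1 library per group, so leaving out a replicate was not possible either. Medians of all, endothelial and pericyte members moved by less than 1.5 times under the 9 settings tried. The smooth muscle median went to -0.33 with a filter of 200, where Acta2 alone was left. Of 186 values of single members, 0 moved out of their own interval, but Abcg2 turned from -0.00 to 0.01 with total-count scaling and with the RPKM ratio. Total-count scaling shifted log2 ratios by 0.01 and TMM by 0.00. With whole counts only, the 14 members that share reads were left out, 12 of them endothelial, 1 pericyte and 1 smooth muscle. Over all genes 8243 were kept. The counts that follow are thus out of fewer members, and the matching shares over all genes were not counted. Intervals below 1 then numbered 18 over all members and 13 over endothelial ones, 14 endothelial members were at least 1.2-fold lower, and ratios below 1 numbered 23 over all, 17 over endothelial and 1 over smooth muscle members. The log2 ratio of summed counts was then -0.30 over all and -0.32 over endothelial members. The 7 members listed as also made by other brain cells were Slc2a1, Pltp, Podxl, Cd34, Ets1, Cspg4 and Anpep. Without them the log2 ratio of summed counts was -0.30 over all and -0.31 over endothelial members. Without Slc2a1 and Pltp alone, a choice made after the values were seen, it was -0.32 for endothelial members. In each cell group, 0 members were lower by the 1.5-fold and 2-fold rules. With a filter of 200, which also leaves fewer members, 4 pericyte members had a ratio below 1, and 2 of them were at least 1.2-fold lower. Acta2, the 1 smooth muscle member left, had a ratio below 1. The arterial and venous median was -0.078 with a filter of 10, against 0.15, and 0.08 with a filter of 200, 0.04 with no filter and 0.04 with whole counts, so its direction depends on the setting. Further medians that moved by over 1.5 times were those of other endothelial genes (-0.19), other pericyte genes (-0.10), the VEGF list (-0.05) and junction partners (-0.04) with a filter of 200. Junction partners were also at -0.01 with a filter of 10 and -0.04 with no filter. With whole counts the PDGF and Notch list was at -0.17 and other pericyte genes at -0.12. The cause of these moves was not tested. The widest counting intervals were those of Sox7, Anpep, Sox18, Sox17 and Erg.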
